A study of Caenorhabditis elegans with 2 samples.

Results

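The 10 genes described here act in the fate or function of touch receptor neurons and FLP neurons of Caenorhabditis elegans. The transcription factor ZAG-1 is known to act in the choice between these fates. The genes were listed by their known roles, at a time when earlier results of these data were known. They are 10 of 19973 nuclear protein-coding genes in the Ensembl models of the WBcel235 assembly (ce11). The assay was ChIP-seq, in which an antibody pulls down the chromatin that a protein sits on, here ZAG-1, and the recovered DNA is sequenced. The series holds 1 group of 2 biological replicates: whole third-stage (L3) larvae of mixed sex, strain OP83, which carries unc-119(ed3) and the transgene wgIs83 with an eGFP-tagged zag-1. Both replicates share this genotype, and no untagged strain, other stage or other factor is part of the series. Chromatin of all cells of the animal was pooled, so a region cannot be given to the few neurons that use these genes. The files hold regions and scores, not reads, so the depth of each library is unknown.

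Touch receptor neurons sense gentle touch along the body. The POU homeodomain protein UNC-86 turns on mec-3, and the LIM homeodomain protein MEC-3 then acts with UNC-86 to switch on the genes of the touch receptor: the channel subunits MEC-4 and MEC-10, the tubulins MEC-7 and MEC-12, the tubulin acetyltransferase MEC-17 and the acyl-CoA synthetase-like protein MEC-18. FLP neurons also express unc-86, mec-3 and mec-10 but do not take on touch receptor fate: EGL-44, a TEAD family protein, and the zinc finger protein EGL-46 block touch receptor genes such as mec-4 and mec-18 there. ZAG-1 is a zinc finger homeodomain protein of the ZEB family. Genetic work places it against EGL-44 and EGL-46, on the side of touch receptor fate.

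The words that these factors are known to bind were sought in the promoters first, because they show where a region would have to lie to cover them. A promoter was taken as the 250 bases before and 50 bases after the 5′ end of the gene, and words were sought on both strands. The genes were listed by known roles, and many of them are switched on by UNC-86 with MEC-3. A high share of the word of these factors is therefore no independent result. AATGCAT, the word bound by UNC-86 with MEC-3, was in 6 of the 10 promoters, against 4.52% of all 19973. It lay at 7 places, shown here 5′ to 3′ on the strand of the gene with 11 bases on either side, with the word in capitals (on the opposite strand it reads ATGCATT, and AATGCATT holds it on both). The bases are those of the RefSeq WBcel235 genome.
mec-3, chrIV:10462087-10462116 minus strand: aattcattcgaAATGCATTgcccataatga
mec-3, chrIV:10461961-10461989 minus strand: gcttcataagaAATGCATctattatcgtc
egl-44, chrII:5928702-5928730 plus strand: tctgattttttATGCATTcgatacatatt
mec-10, chrX:8470312-8470341 minus strand: tcccacttacaAATGCATTcgttttgtcga
mec-7, chrX:7776801-7776829 minus strand: attcgaatgccATGCATTtgttgatgatg
mec-17, chrIV:7987228-7987256 minus strand: ggctcaccaaaAATGCATgagaatgggga
mec-18, chrX:4274267-4274295 minus strand: gttgcactggtATGCATTtgtgatgcgaa
These words began 238 and 111 bp before the 5′ end of mec-3, 129 bp before that of mec-7, 89 bp before that of egl-44, 68 bp before that of mec-18, 62 bp before that of mec-17 and 16 bp before that of mec-10. None of the 7 lay inside a region of any of the 4 lists described next. The nearest replicate summit was 334 bp away, at mec-18, and the nearest joint-list summit 1939 bp away, at mec-17. A word found is a description of the sequence and not a measured binding site.

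CACCTG, the word bound by vertebrate ZEB proteins, was in 0 of the 10 promoters, against 8.48% of all. CATTCC, bound by vertebrate TEAD proteins, was in 1, that of mec-18, against 12.5%. GAGAGA, which earlier results of these data had shown to be frequent at the strongest regions, was in 4 (mec-3, egl-44, mec-7 and mec-12), against 21.8%. With 10 promoters, 1 promoter more or fewer moves these shares widely.

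The authors deposited 4 lists of regions in ce11. The optimal set holds 357 regions that passed the irreproducible discovery rate (IDR), a measure of how well the ranks of replicates match. The joint list, made from both replicates together, holds 10005 regions. The replicate lists hold 30000 regions (replicate 1) and 26202 regions (replicate 2). The joint and replicate lists include background on purpose, so an entry in them is a candidate and not a called site. Each region has a signal score by the authors, which was used only within its own list, and a summit. A region was counted at a gene when its summit lay in the gene body or within 5000 bp of it.

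None of the 10 genes had an optimal region. Of all genes, 4.4% did, so fewer than 1 of 10 would be met at that share, and a count of 0 is no result about these genes. The optimal summit nearest to a gene body lay 33889 bp from mec-3, and the farthest nearest one 445799 bp from mec-17. The median of these distances was 80067 bp, against a median of 121898 bp over all genes. The optimal set therefore held no candidate at the regulators, the channel, the tubulins or the other touch genes.

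Below that threshold, 8 of the 10 genes had at least 1 region of the joint list, and all but mec-10 and mec-18 were among them. The share of all genes with such a region was 64.5%. Because longer genes have wider windows, each gene was also set beside all genes within 20% of its own length, which were 627 to 4094 genes. Of these, 59.5% to 87.7% had a joint-list region (median of the 10 shares, 68.7%). The 8 of 10 are thus close to what genes of these lengths have.

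The 19 joint-list regions at the 10 genes were spread over much of the list, from rank 995 to rank 9940, and all scored below the optimal set. Their scores ran from 12.2 to 22.3 with a median of 14.5, against a list median of 14.7 and a lowest optimal score of 33.0. Of the 19, 8 lay above the list median, 6 among the 2500 highest and 1 among the 1000 highest. The lowest of these 6, at rank 2469, had 24.7% of the list at or above it, and the highest, at rank 995, had 9.95%. Their highest −log10 q-value was 0.768, against 1.38 for the optimal regions.

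**Figure D1:**
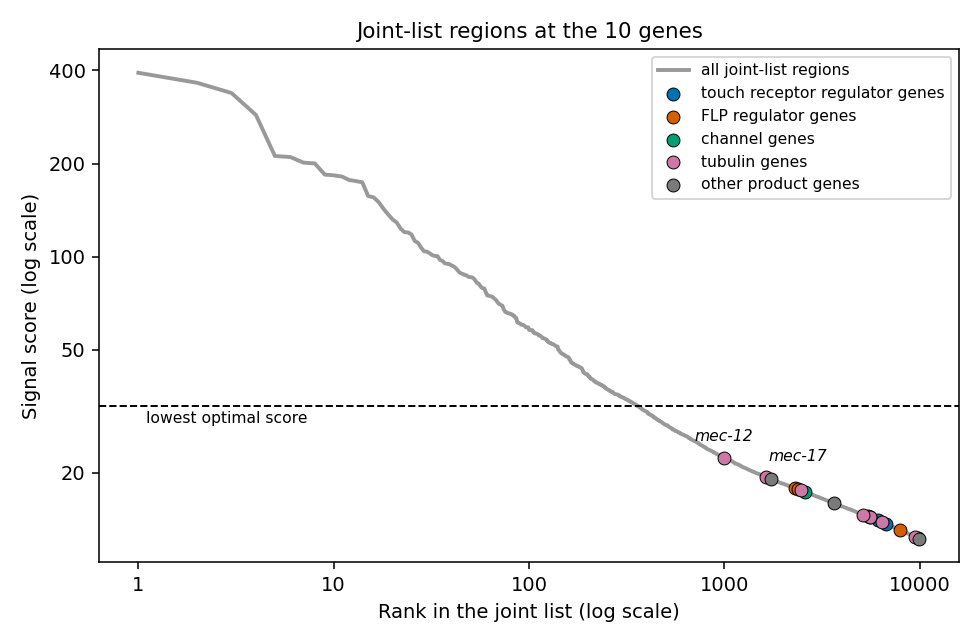
Signal score against rank for all 10005 joint-list regions (grey line, both axes on log scales), with the 19 regions at the 10 genes as points coloured by the role of the gene and the lowest optimal score as a dashed line. All 19 points lie below the dashed line, the highest being the mec-12 region at rank 995.

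Among the touch receptor regulators, unc-86 (WBGene00006818, chrIII:8212740-8216336, minus strand), which encodes the POU homeodomain protein at the top of the pathway, had 1 joint-list region. Its summit lay downstream of the gene at position 8210330, with a score of 14.04 at rank 6085 of 10005, and the nearest coding start was that of C30A5.10, 455 bp away. Replicate 2 had a summit 4 bp from it (score 9.77, rank 6178 of 26202), while the nearest in replicate 1 lay 487 bp away. In all, replicate 1 had 4 regions at unc-86, with scores of 4.65 to 6.59, and replicate 2 had 5, with scores of 6.33 to 9.81. None of these 9 ranked among the 5000 highest of its list. The 2 replicates had no shared position within 100 bp at this gene.

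The LIM homeodomain gene mec-3 (WBGene00003167, chrIV:10458816-10461867, minus strand) also had 1 joint-list region, at position 10458760, just past the 3′ end of the gene. Its score was 13.7 at rank 6702, and the nearest coding start was that of the chemoreceptor-family gene srb-17, 1523 bp away. Both replicates had this region, replicate 1 at the same base (score 4.68, rank 19166 of 30000) and replicate 2 at a distance of 15 bp (score 8.61, rank 9511). The other mec-3 entries were 1 of replicate 1, at rank 18877, and 2 of replicate 2, at ranks 13314 and 18852. No list had a region over the mec-3 promoter or its AATGCAT words.

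Of the FLP regulators, the TEAD gene egl-44 (WBGene00001208, chrII:5928802-5940830, plus strand), the longest of the 10 at 12029 bp, had 4 joint-list regions. The highest was in a coding exon, with its summit at position 5938786, a score of 17.9 and rank 2298. It was at the same base in both replicates but stood high in only 1 of them: it scored 9.66 at rank 1843 of 30000 in replicate 1 and 7.36 at rank 14852 of 26202 in replicate 2. Intronic regions lay at positions 5931973 (score 14.5, rank 5395) and 5936395 (13.05, rank 7942). The second of these, 46 bp from an internal transcript start of egl-44, was found in both replicates (ranks 6817 and 25340), and the first in replicate 2 alone (rank 3900). The fourth region, downstream at position 5945120 (12.3, rank 9806), was 752 bp from the start of B0034.2. Replicate 1 had 11 regions at egl-44, as many as at mec-12, and replicate 2 had 9, the most of the 10 genes. The replicates shared 3 of these positions within 100 bp. The one not yet named lay upstream, 494 bp before the 5′ end in replicate 1 (score 3.75, rank 28237) and 576 bp before it in replicate 2 (score 6.49, rank 20235). Both of its summit windows, of 50 bases on either side, hold CACCTG. In the plot of joint-list regions per gene, egl-44 stands at 4 beside a median of 2 for the 627 genes of like length, of which 24.4% had as many.

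The zinc finger gene egl-46 (WBGene00001210, chrV:6679123-6681573, minus strand) had 1 joint-list region, downstream at position 6676781, with a score of 17.7 at rank 2391. Its summit was 18 bp from a transcript start of the carboxylesterase-family gene cest-34, so the region lies at another gene's promoter as well as in the egl-46 window. Replicate 1 placed its summit 94 bp away at rank 758, the highest rank of any replicate 1 region at the 10 genes (score 11.9), whereas replicate 2 had it 17 bp away at rank 20971 (6.38). Within egl-46 itself, replicate 1 had an intronic region 674 bp from the 5′ end, at rank 4421, that was not within 100 bp of a replicate 2 summit. Replicate 2 had 1 region overlapping the egl-46 promoter, with its summit 308 bp before the 5′ end at rank 22086. The strongest replicate 2 region at egl-46 lay farther upstream, 3173 bp before the 5′ end, with a score of 10.03 at rank 5618, and had no replicate 1 summit within 100 bp. Its summit window holds CACCTG, and also the word of UNC-86 with MEC-3 and GAGAGA.

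**Figure D2:**
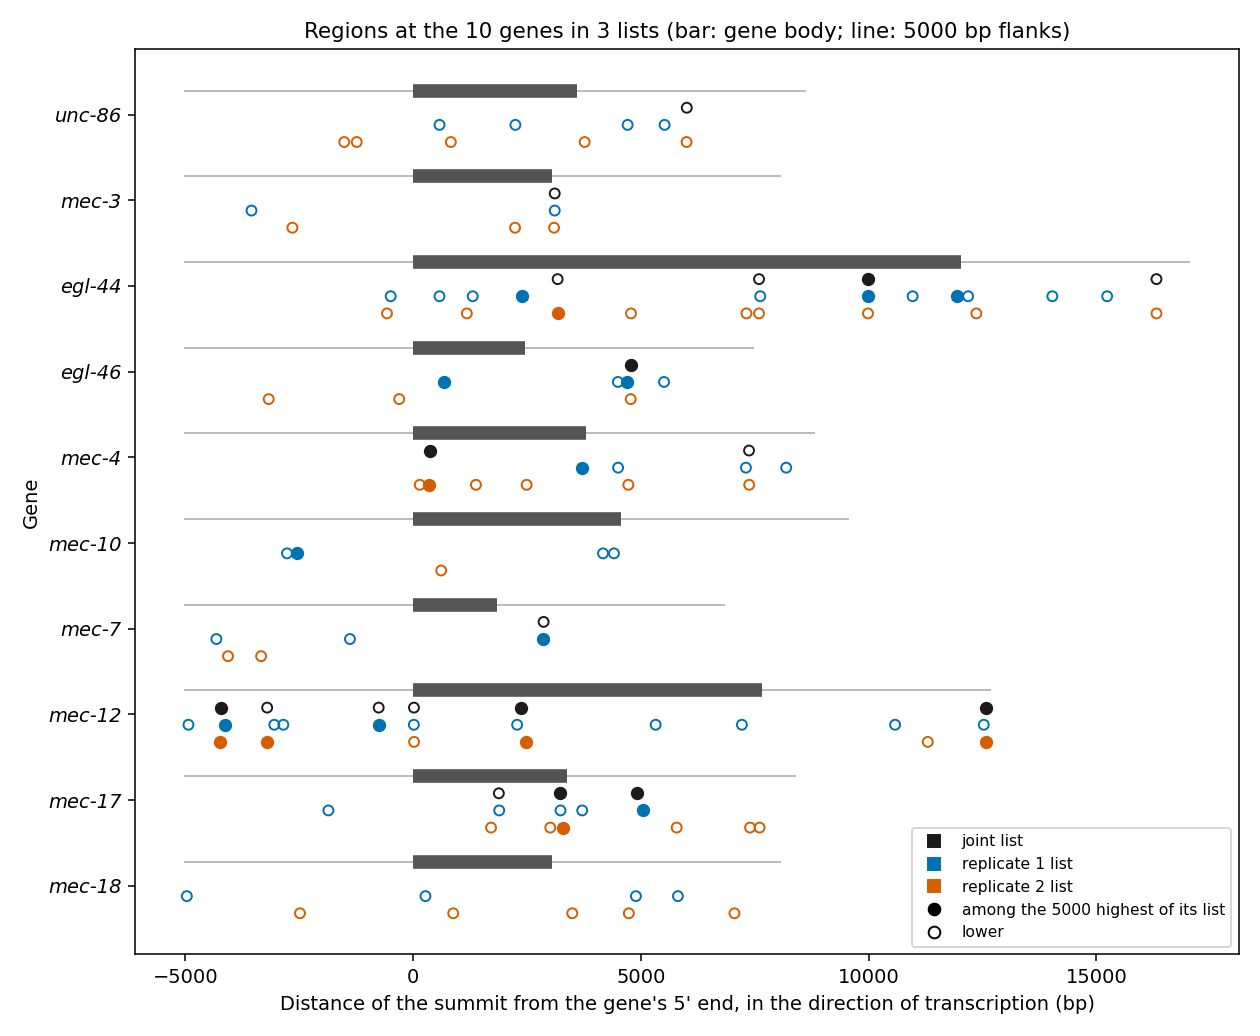
Summits of the joint list (black), replicate 1 (blue) and replicate 2 (orange) at each gene, by distance in bp from the 5′ end of the gene in the direction of transcription, with the gene body as a thick bar and the 5000 bp flanks as a thin line; filled points are among the 5000 highest regions of their list. Summits are scattered along the windows, and mec-10 and mec-18 have no black point.

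Of the channel genes, mec-4 (WBGene00003168, chrX:16803321-16807115, minus strand), which encodes the pore-forming subunit of the touch channel, had 2 joint-list regions. The stronger lay in an intron 358 bp inside the gene, at position 16806757, with a score of 17.4 at rank 2577. Replicate 2 had its highest-ranked region at any of the 10 genes there, 3 bp away, with a score of 15.7 at rank 954 of 26202. In replicate 1 the nearest summit was 3357 bp away, in a coding exon near the other end of mec-4, with a score of 9.38 at rank 2090 of 30000. The strongest mec-4 region of each library was thus missing from the other within 100 bp. The second joint-list region, at position 16799742 (score 14.4, rank 5557), lay downstream, 35 bp from a transcript start of aak-2, which encodes a catalytic subunit of AMP-activated protein kinase. It was in both replicates, at ranks 15470 and 16041.

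The second channel gene, mec-10 (WBGene00003174, chrX:8465760-8470314, minus strand), had no joint-list region, and 73.7% of the 2194 genes of like length had one. It had 4 replicate 1 regions, the strongest 2554 bp upstream at position 8472868 with a score of 9.77 at rank 1758, and a single replicate 2 region, 614 bp inside the gene with a score of 6.58 at rank 19640. No mec-10 position was shared by the 2 replicates.

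Of the tubulin genes, mec-12 (WBGene00003175, chrIII:3131574-3139234, minus strand), which encodes the α-tubulin of touch receptor microtubules, had the most joint-list regions of the 10 genes. It had 6 joint-list regions, against a median of 2 for the 1121 genes of like length, of which 3.93% had 6 or more. It had 11 regions in replicate 1, a number met by 3.66% of those genes, and 6 in replicate 2, met by 36.8%. The high number was therefore seen in the joint list and in replicate 1, and replicate 2 was nearer to its median of 5. This was the only one of the 10 genes above the 95th percentile of like-length genes in the joint list, and it is picked out here after its value was seen.

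The highest mec-12 region, at rank 995 the highest of the 19, had its summit at position 3143447, 4213 bp upstream of mec-12, inside the gene C44B11.4 and 310 bp from that gene's start. Its score was 22.3, which is 67.6% of the lowest optimal score. Both replicates had it among their 5000 highest, replicate 1 with a summit 91 bp away (score 7.85, rank 4314 of 30000) and replicate 2 with one 35 bp away (score 14.8, rank 1191 of 26202). A second upstream region, at position 3142441 (14.6, rank 5139), also lay inside C44B11.4. The region that followed in score was in an intron of mec-12 at position 3136858, with a score of 19.4 at rank 1622. It stood at rank 1278 in replicate 2 and at 14984 in replicate 1, with summits 97 and 95 bp away. The other 3 lay at positions 3126660 (17.6, rank 2469), downstream and inside the gene nipa-1, 3139992 (13.8, rank 6423), 758 bp upstream of mec-12 and at the same base in replicate 1 (rank 3552), and 3139218 (12.44, rank 9412), in the 5′ UTR 16 bp from the 5′ end. The last was found in both replicates within 3 bp, at ranks 29396 and 10016, which is near the bottom of replicate 1.

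The 2 highest mec-12 summits and the highest of mec-4 and of egl-44 are shown so that the sequence under the higher joint-list regions can be read; a mec-17 summit and an egl-46 summit of similar rank are not printed, since their windows touch annotated UTRs. Each is printed with 50 bases on either side of the joint-list summit, on the strand of the gene. None holds any of the 4 words searched in the promoters on either strand, so no base is in capitals.
mec-12 upstream, chrIII:3143397-3143497 minus strand: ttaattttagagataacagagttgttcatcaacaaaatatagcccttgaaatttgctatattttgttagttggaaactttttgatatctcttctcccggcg
mec-12 intron, chrIII:3136808-3136908 minus strand: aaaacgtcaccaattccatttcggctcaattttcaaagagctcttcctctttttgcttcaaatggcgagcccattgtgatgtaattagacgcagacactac
mec-4 intron, chrX:16806707-16806807 minus strand: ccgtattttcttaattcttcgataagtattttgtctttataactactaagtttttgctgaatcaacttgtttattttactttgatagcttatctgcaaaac
egl-44 coding exon, chrII:5938736-5938836 plus strand: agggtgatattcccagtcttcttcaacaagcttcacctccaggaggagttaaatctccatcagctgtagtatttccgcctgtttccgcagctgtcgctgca
Over all 19 summit windows, the ZEB word CACCTG was in 0, against 1.88% of the 9985 nuclear joint-list windows. The word of UNC-86 with MEC-3 was in 0, against 1.49%, and the TEAD word in 0, against 3.78%. GAGAGA was in 1, the mec-12 5′ UTR region, against 8.98% of the joint list and 38.6% of the 339 nuclear optimal windows. Regions of the replicate lists did hold these words. CACCTG was in 4 of 52 replicate 1 windows, at egl-44, mec-12 and mec-18, against 2.17% of that list, and in 3 of 46 replicate 2 windows, at egl-44 and egl-46, against 2.05%. The word of UNC-86 with MEC-3 was in 3 windows of each replicate, against 1.52% of the replicate 1 list and 1.49% of the replicate 2 list. CATTCC was in 4 of each, against 4.10% of the replicate 1 list and 4.04% of the replicate 2 list. GAGAGA was in 3 of the replicate 1 windows, against 6.25%, and in 6 of the replicate 2 windows, against 6.80%. The mean GC content was 34.7% ± 9.47 (SD, n = 19 windows), against 35.0% ± 9.64 (SD, n = 9985) for the joint list and 48.6% ± 8.23 (SD, n = 339) for the optimal set. In GC content the 19 windows were thus like the joint list as a whole and lower than the optimal regions by more than 1 SD.

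The β-tubulin gene mec-7 (WBGene00003171, chrX:7774856-7776689, minus strand), the shortest of the 10 at 1834 bp, had 1 joint-list region, downstream at position 7773826, with a score of 14.4 at rank 5564. The summit lay inside deg-1, a neighbouring gene of the same channel family as mec-4, named here after its place was seen. Replicate 1 had it 22 bp away at rank 1451 (score 10.2), and the nearest replicate 2 summit lay 6203 bp away. The 2 replicate 2 regions at mec-7, with scores of 7.17 and 7.42, lay upstream, and no mec-7 position was shared.

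Of the other products, the tubulin acetyltransferase gene mec-17 (WBGene00003178, chrIV:7983802-7987183, minus strand) had 3 joint-list regions, against a median of 1 for genes of like length, of which 14.96% had as many. The strongest, with a score of 19.1 at rank 1730, had its summit at position 7983969 in the 3′ UTR. It was in both replicates, at rank 1714 of 26202 in replicate 2 (score 13.5) and 20443 of 30000 in replicate 1 (score 4.53). The windows of 5 protein-coding genes hold this summit, among them unc-24, which encodes a stomatin-like protein of touch neurons. A downstream region at position 7982271 (15.9, rank 3628) was 255 bp from the start of arf-5 and had no summit of either replicate within 100 bp, the nearest being one of replicate 1 at 140 bp (rank 1235). The third, in an intron at position 7985303 (12.2, rank 9940), was in replicate 1 alone.

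The gene mec-18 (WBGene00003179, chrX:4271165-4274216, minus strand) had no joint-list region, while 66.9% of the 3194 genes of like length had one. Its 4 replicate 1 regions scored 3.75 to 4.91 with a best rank of 17269, and its 5 replicate 2 regions scored 6.66 to 9.99 with a best rank of 5707. None was shared, and none was among the 5000 highest of its list. With unc-86 and mec-3 it is one of 3 genes with no such region in either replicate.

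**Figure D3:**
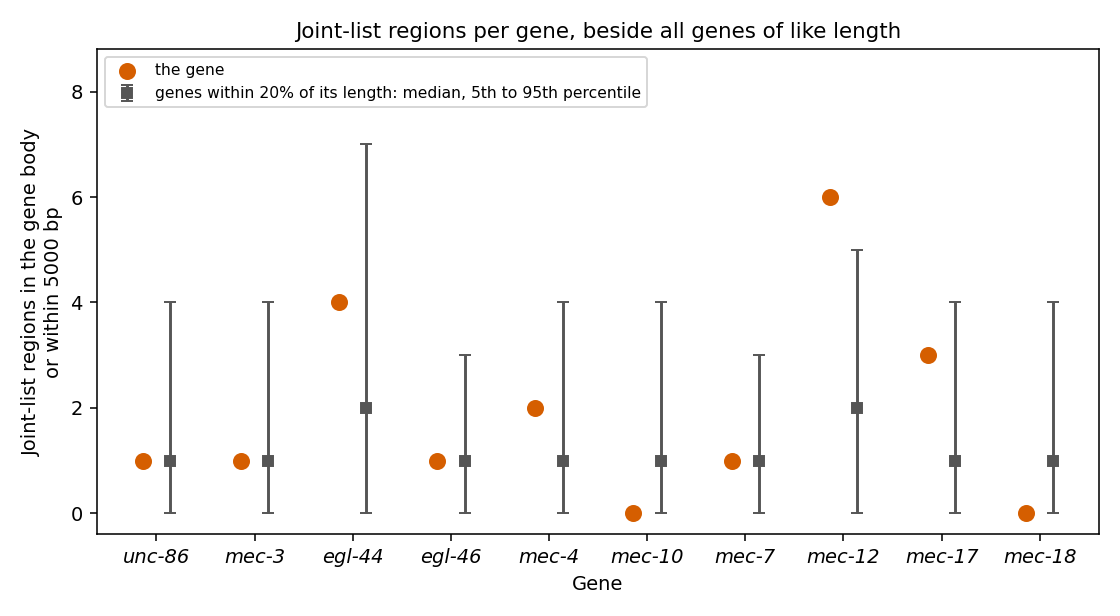
Number of joint-list regions in the gene body or within 5000 bp for each of the 10 genes (orange circles) and for all genes within 20% of its length (grey squares, median, with bars from the 5th to the 95th percentile). Only mec-12, at 6, lies above its bar, and mec-10 and mec-18 are at 0 beside medians of 1.

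Seen together, 4 genes had more joint-list regions than the median of genes of like length (egl-44, mec-4, mec-12 and mec-17), 4 had the same number and 2 had fewer. The mean was 1.90 regions per gene for the 10, against 1.26 for all genes, and the medians were both 1. In replicate 1 the 10 genes had 52 regions (median 4 per gene, against 3 for all genes), and in replicate 2 they had 46 (median 5, against 3). Every one of the 10 had a region in both replicate lists, where 95.4% of all genes did in replicate 1 and 92.5% in replicate 2. Per 10000 bp of window, the 10 genes had 1.31 joint-list regions, 3.58 of replicate 1 and 3.16 of replicate 2, against 0.996, 2.99 and 2.61 over the nuclear genome. With mec-12 at 6 of the 19 and windows shared with neighbours, these regions are not independent counts.

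The joint-list regions were also read by their place relative to each gene. Of the 19, 8 lay in gene bodies, 8 downstream and 3 upstream, all 3 of the last at mec-12. Over the windows of all genes, 22.4% of regions lay in gene bodies, 36.8% downstream and 40.8% upstream. These shares were not matched for gene length, and a longer gene has more gene body in its window. Promoters were counted for the 10 genes only, and not for neighbours such as cest-34, which has a transcript start 18 bp from a summit. A region of the joint list overlapped 1 of these 10 promoters, that of mec-12, close to the share of 9.99% over all genes. The optimal set overlapped 0 of them (0.871% of all genes), replicate 1 overlapped 1, mec-12 (22.8%), and replicate 2 overlapped 3, egl-46, mec-4 and mec-12 (20.7%). For 9 of the 19 the nearest coding start was that of another gene, and a summit lay in the windows of 1 to 5 protein-coding genes (median 2).

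The replicates held the same positions only in part. Of the 19 joint-list regions, 10 had a summit of both replicate lists within 100 bp (52.6%, exact 95% binomial interval 28.9 to 75.6). The share of all nuclear joint-list regions was 35.3%. These 10 fell at 6 genes, 4 of them at mec-12, 2 at egl-44 and 1 each at mec-3, egl-46, mec-4 and mec-17. Of all genes, 33.5% had such a region, and of genes of like length 28.3% to 56.5% (median 34.7%). Replicate 1 held 13 of the 19, replicate 2 held 15, and 1 was in neither. Each replicate was matched here to the joint-list summit and not to the other replicate. At the mec-12 regions of ranks 995 and 1622, the replicate summits lay on opposite sides of the joint-list summit, more than 100 bp apart. The replicates thus did not share these mec-12 positions within 100 bp of each other. The intervals given here and below cover the counting of regions only. They take the regions as independent, which they are not, so no difference from the share of all regions is read from them.

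The overlap was also read from the replicate lists themselves. Of the 52 replicate 1 regions, 10 had a replicate 2 summit within 100 bp (19.2%, exact interval 9.63 to 32.5), against 13.9% of all nuclear replicate 1 regions. Among the 5000 highest regions of replicate 1 were 11 at 7 of the genes, egl-44, egl-46, mec-4, mec-10, mec-7, mec-12 and mec-17, against 42.9% of all genes. Among the 5000 highest of replicate 2 were 7 at 4 of the genes, egl-44, mec-4, mec-12 and mec-17, against 41.6%. No position within 100 bp was in both of these sets (0 of 11), against 12.9% over the 5000 highest regions of replicate 1. The mec-12 upstream region is in both sets, but with replicate summits 91 bp on one side and 35 bp on the other side of the joint-list summit.

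**Figure D4:**
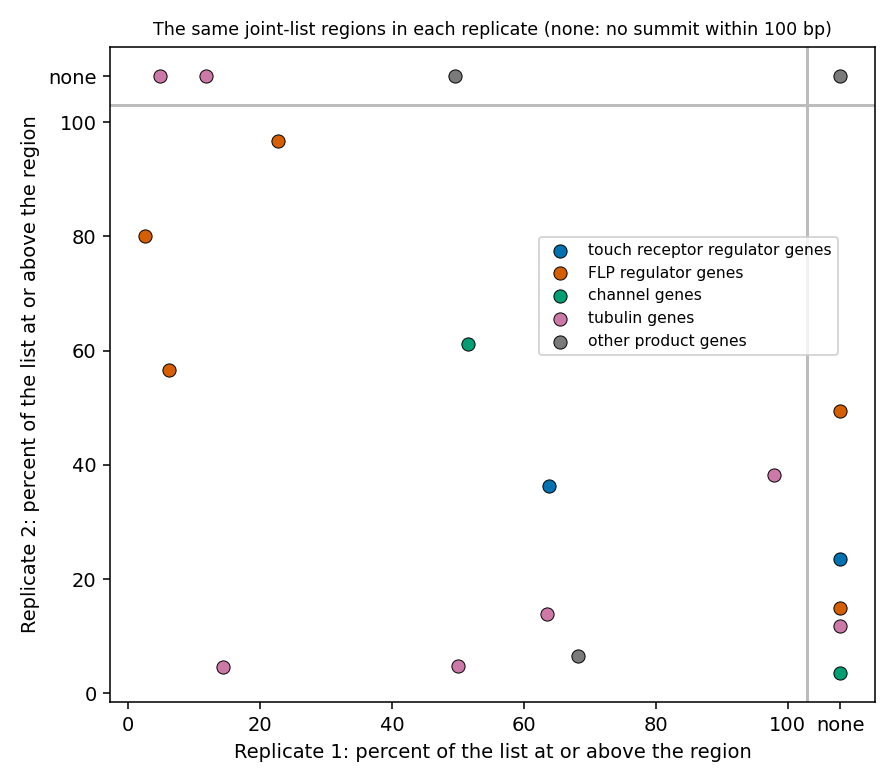
Place of the 19 joint-list regions in replicate 1 (x axis) and replicate 2 (y axis), as the percent of the list at or above the nearest summit, where a low value is a strong region; points beyond the grey lines had no summit within 100 bp in that replicate. Only the mec-12 upstream region lies below 20 on both axes.

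The other genes of the pathway were read in the same way from 3 lists of named genes. Of 16 other touch receptor genes, 0 had an optimal region and 11 a joint-list region (68.8%), where genes of like length had a median share of 69.6%. Among the 11 is unc-24, whose highest region is the mec-17 region at rank 1730 already described. The highest regions of this list were at crt-1, which encodes the chaperone calreticulin, with a score of 25.5 at rank 692, 264 bp before its 5′ end, and at mec-19, with 22.4 at rank 978. The crt-1 region was found in both replicates and the mec-19 region in replicate 2 alone. Of 21 regulators of touch receptor, FLP and PVD fate (PVD being a further neuron that needs mec-3), 19 had a joint-list region (90.5%, like-length median 74.7%) and 2 an optimal one. Of 19 FLP and PVD dendrite and channel genes, 18 had a joint-list region (94.7%, like-length median 74.7%) and 1 an optimal one. An optimal region was thus at 9.52% of the regulators and 5.26% of the dendrite and channel genes, against 4.4% of all genes. With so few genes, these optimal counts are no result about the lists. Neighbouring genes can be counted through the same region, as at rank 9281 in the dendrite and channel list, so these are not independent counts. No list was tested, since the members were chosen with earlier results known.

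The 2 regulators with optimal regions were ldb-1 and lin-14. The gene ldb-1 encodes the LIM domain-binding protein, a partner of LIM homeodomain proteins such as MEC-3. Its region, at chrX:11031214-11031597, lay in an intron, with a score of 61.2 at rank 88 of the joint list, and was found in both replicates. Of the 652 genes of like length 7.67% had an optimal region. The gene lin-14, which times larval cell fates, had 2 intronic optimal regions (scores 47.8 and 39.7, ranks 153 and 214) and 18 joint-list regions. None of the 218 genes within 20% of its 20312 bp had as many joint-list regions, and 7.80% of them had an optimal region. Among regulators without an optimal region, mig-13 had the highest score (22.4), at a region found in replicate 1 alone. The gene mig-13 had 2 joint-list regions, a number reached by 37.9% of its 2471 like-length genes. The Hox gene lin-39 had 6, reached by 3.93% of its 1095 like-length genes, and its highest (21.4) was found in replicate 2 alone. The LIM homeodomain gene ceh-14 had 1 (21.2), also found in replicate 2 alone, and 74.6% of its 2023 like-length genes had as many. Of the dendrite genes, kpc-1 encodes a furin-like proprotein convertase needed for PVD dendrite shape. It had 8 joint-list regions (highest score 31.9, just under the lowest optimal score), a number reached by 0.150% of its 2006 like-length genes. The counts of lin-14, lin-39 and kpc-1 are picked out here after their values were seen. The optimal region counted at degt-1, a channel gene of the DEG/ENaC family, scored 38.1, lay 3263 bp upstream and was 673 bp from the start of ppm-1.A. Of the 1841 genes of like length to degt-1, 5.92% had an optimal region.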

How the data were processed

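Both replicates and the deposited lists are described above; library fragments were 150 to 350 bp, per the labels. Per the notes deposited with the lists, each list was made from alignments and a control, and the optimal set from the other lists. Which aligner, caller and thresholds they used is not given in the sources used here. Deposited values are a signal score per region, not scaled between lists, a −log10 q-value from the authors' caller, and another deposited column, the summit offset. The ce10 lists were not used here, since no ce10 gene models were at hand.

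Scores and ranks describe regions within a list. The members and lists of genes were chosen with earlier results of these data known. Named genes are the 10, any gene whose start is nearer to a joint-list summit, and up to 6 by score of each pathway list with a joint-list region; lin-4, not protein-coding, was left out. Like-length genes are all genes within 20% of a length, so nothing was drawn at random, and no test was run. Summits within 100 bp were taken as the same. Coordinates are 1-based. Window counts and matches were checked on simulated data. Python 3.11.15, NumPy 2.4.6, pandas 2.3.3, SciPy 1.17.1 and matplotlib 3.10.9 were used. Alternatives covered flank, overlap, nearest start, list depth, summit distance and length range.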

Additional observations from a re-analysis of the deposited data

How the results depend on the processing

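No paired analysis was possible because there is just 1 group. The count of 0 genes with an optimal region was the same under all 7 alternatives run, up to a 10000 bp flank, where 7.21% of all genes had one. The nearest optimal summit lay 33889 bp from a gene body, so none of the 7 could have given another count. Genes with a joint-list region fell to 4 with no flank (18.8% of all genes), 5 with 1000 bp (35.6%) and 5 by nearest start (31.2%). Restriction to regions in both replicates, chosen after seeing the data, gave 6. The 5000 highest regions of replicate 2 gave 4 genes. Regions in either replicate gave 10 of 10 genes without replicate 1 (92.5% of all genes) and without replicate 2 (95.4%). The range on leaving out a replicate is thus 10 to 10, near the share of all genes. The count was 9 with no flank, 9 with 1000 bp and 7 with the 5000 highest regions. The share of all genes with a region in either replicate was not computed under these settings, so these counts cannot be set beside it. For replicates 1 and 2 singly, that share was 45.9% and 41.9% with no flank, and 71.1% and 66.3% with 1000 bp. It was 42.9% and 41.6% with the 5000 highest regions. The share for either replicate can only be as high as these or higher. Joint-list regions in both replicates were 5 of 19 within 50 bp, against 22.2% of all nuclear joint-list regions. They were 5 of 8 with no flank, 6 of 10 with 1000 bp and 6 of 12 with 2000 bp, each against 35.3% of all. Replicate 1 regions shared with replicate 2 were 6 of 52 within 50 bp (8.47% of all), 17 within 200 bp (21.6%) and 22 by a 1 bp overlap (31.4%). They were 4 of 20 with no flank, 6 of 26 with 1000 bp and 6 of 33 with 2000 bp, each against 13.9% of all. Among the 5000 highest they were 0 of 11, against 12.9% of all. Tighter matching and narrower windows can only lower a count, and looser matching only raise it. The cause of the 0 was not tested. Without a read depth, no score can be given an error.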
